A study of Mus musculus with 4 samples.

Results

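Lysosomal enzymes and membrane proteins were examined as a group of 41 genes, chosen by gene symbol as lysosomal hydrolases, their soluble helpers, membrane proteins, subunits of the proton pump and the regulator Tfeb, out of the 49315 genes in the count table. RNA-Seq was performed on cells sorted from the mouse lung as group 2 innate lymphoid cells (ILC2s), which are lymphocytes without antigen receptors. The gate was Thy1.2+ICOS+T1/ST2+ within Lineage- cells, and the sorted cells were kept in culture with IL-2 before their RNA was extracted. Mice on a C57BL/6 background were WT or Hps1-/- and received PBS or bleomycin, which gave 4 groups named PBS-WT and PBS-HPS1 with PBS, and BLEO-WT and BLEO-HPS1 with bleomycin, and values are given in this order throughout. Each group was 1 library, and the number of mice behind a library and the time in culture are not stated in the sources used here. The study describes both an intraperitoneal and an intratracheal bleomycin model, with an age for the mice of the first, and the sources do not tie the sequenced cells to either. Bleomycin is used to injure the lung and induce fibrosis, and Hps1 is the gene mutated in Hermansky-Pudlak syndrome type 1. The mutation is carried by every cell of the mouse, so a difference between genotypes in sorted cells is not limited to what Hps1 does within them.

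Lysosomes are acidic organelles in which hydrolases digest proteins, glycans, nucleic acids and lipids delivered by endocytosis, phagocytosis and autophagy. A V-type ATPase pumps protons into the lumen, heavily glycosylated membrane proteins line the limiting membrane, and most hydrolases are sorted from the Golgi by mannose 6-phosphate receptors. The transcription factor TFEB and its relatives bind a promoter element called CLEAR and switch on many lysosomal genes together, and HPS1 belongs to a complex, BLOC-3, that serves the making of lysosome-related organelles such as melanosomes and platelet dense granules.

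RefSeq promoter windows (GRCm38.p6, 250 bases before to 50 bases after the start site) were matched by symbol for 35 of the 41 genes, in 39 windows. The palindrome at the core of CLEAR, TCACGTGA, which reads the same on either strand, was present in 4 of these windows (10.3%) and in 0.974% of all 32851 windows. The shorter E-box CACGTG, which every TCACGTGA contains, was present in 11 of the 39 windows (28.2%) against 7.15% of all windows. As a contrast, TATAAA on either strand was found in 3 of the 39 (7.69%), those of Ctss, Laptm5 and Lipa, against 13.6% of all. The stretch around the palindrome is shown for the 4 genes that hold it, with TCACGTGA in capitals, because these are the members whose promoters carry the letters of the shared element. Its first base lies 13 bases before and 4 bases after the RefSeq start site in Ctsa, and 99, 195 and 46 bases before it in Ctsd, Gla and Mcoln1, and Gla holds another copy 228 bases before.
Ctsa, chr2:164833757-164833786, plus strand: ctgTCACGTGAtgcagatgcTCACGTGAcc
Ctsd, chr7:142387908-142387937, minus strand: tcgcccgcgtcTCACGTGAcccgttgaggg
Gla, chrX:134601182-134601211, minus strand: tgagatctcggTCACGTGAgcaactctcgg
Mcoln1, chr8:3500462-3500491, plus strand: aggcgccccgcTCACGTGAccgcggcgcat
A match describes the letters in the window and no more, and binding was not measured.

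Total counts were between 72513619 and 87638154 reads, and the lowest count of any of the 41 genes in any library was 1190 reads. Levels are given as CPM, reads on a common library size after TMM scaling, and ratios on the log2 scale, to which a prior count of 2 was added. With 1 library per group no ratio has a replicate check and no p-value is given; the 95% intervals are exact Clopper-Pearson intervals that cover counting error only. Hps1 itself was at 38.3, 16.6, 48.4 and 21.3 CPM, lower in the libraries labelled HPS1. All 41 genes passed the filter of at least 1 CPM in at least 1 library, which kept 14840 genes of the table. A gene was counted as higher or lower when it was at least 2-fold apart. The ratios that compare bleomycin with PBS depended on the GC content of the transcript over all genes. Each ratio was therefore also corrected by loess for GC content and transcript length, and the corrected value is quoted where it moves a call of the 41 genes.

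Most lysosomal genes stood higher in the bleomycin library than in the PBS library of the same genotype, 38 of the 41 in WT and 37 in Hps1-/-. In BLEO-WT against PBS-WT, 17 of the 41 were at least 2-fold higher, against 5.28% of all genes tested, and 0 were at least 2-fold lower, against 8.22%. In BLEO-HPS1 against PBS-HPS1, 24 were higher, against 26.2% of all genes, and 1 was lower, against 19.6%. The median log2 ratio of the 41 genes was 0.92 in WT and 1.12 in Hps1-/-, where that of all genes tested was 0.09 and 0.25. Both bleomycin libraries were above both PBS libraries for 33 of the 41, against 41.2% of all genes tested, and below both for 1, against 26.7%.

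The genotypes stood much closer to each other. In PBS-HPS1 against PBS-WT, 0 of the 41 were at least 2-fold higher (2.16% of all genes) and 1, Ppt1, was lower (3.11%). In BLEO-HPS1 against BLEO-WT, 0 were higher (6.72%) and 2, Ids and Atp6v0d2, were lower (10.3%). The summed level of the 41 genes was 19595, 14193, 43931 and 42661 CPM, which was 2.11%, 1.81%, 3.93% and 3.48% of all reads. The sum was thus 2.24 times as high in BLEO-WT as in PBS-WT, 3.01 times as high in BLEO-HPS1 as in PBS-HPS1, and 0.971 times in BLEO-HPS1 what it was in BLEO-WT. Scaling by total counts in place of TMM lowered the bleomycin counts to 8 genes in WT and 14 in Hps1-/-, and the number with both bleomycin libraries above both PBS libraries to 25. The shares of all genes under this scaling were not taken, but their median ratios fell too, to -0.18 in WT and -0.43 in Hps1-/-. Those of the 41 genes were then 0.66 and 0.48.

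**Figure D1:**
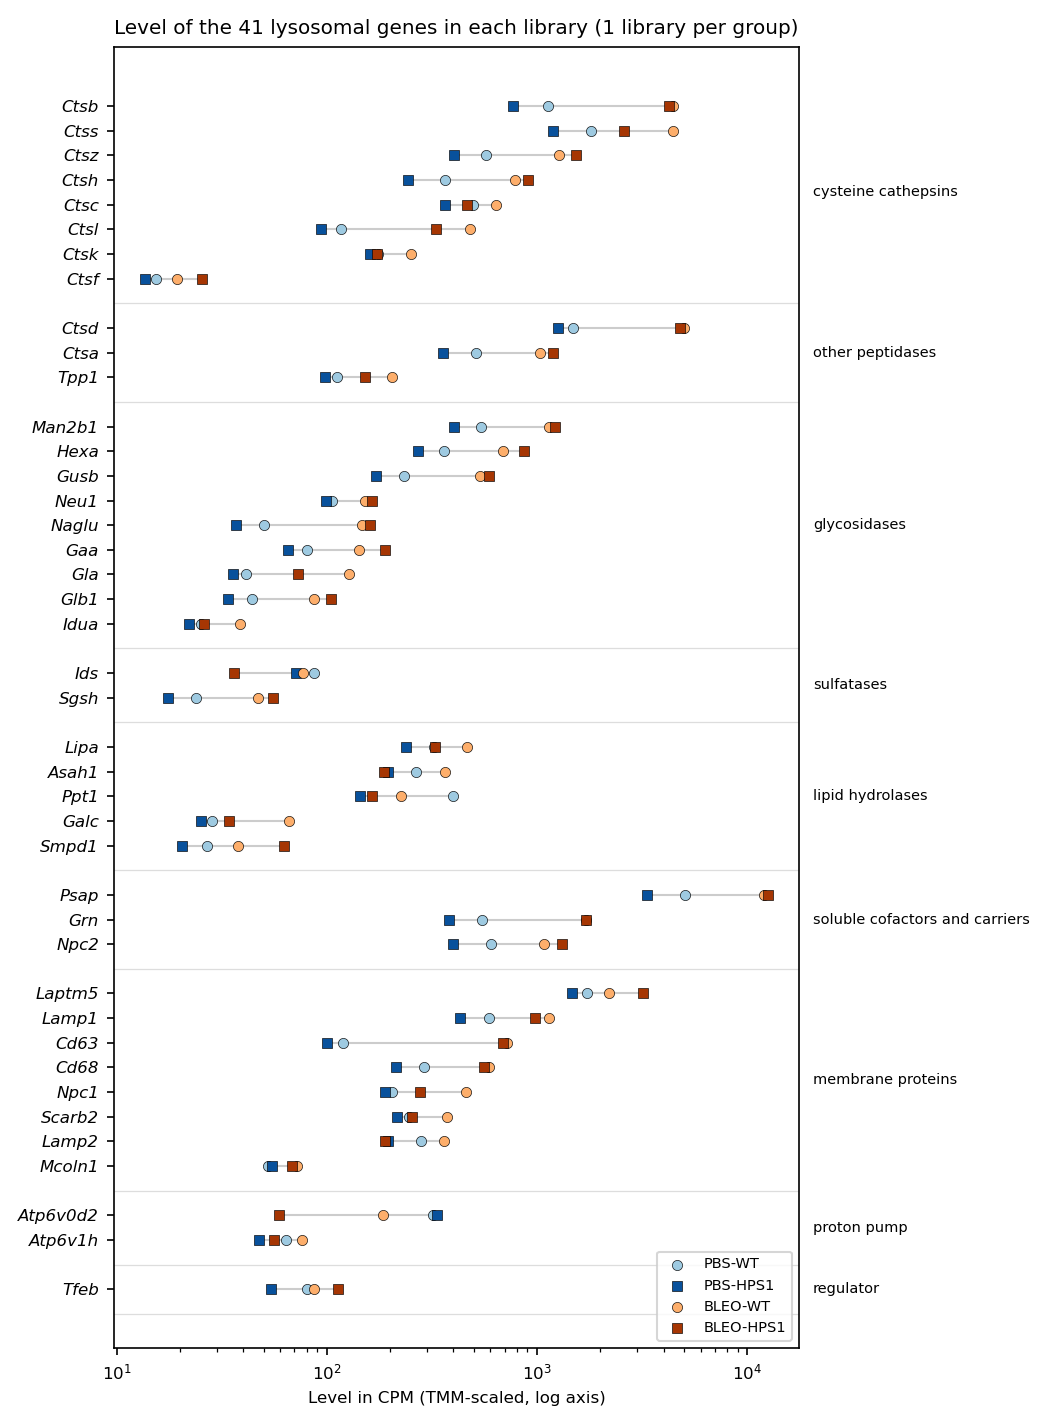
Level of each of the 41 lysosomal genes (CPM, log axis) in the 4 libraries, 1 point per library, grouped by role. Orange and brown points (bleomycin) lie to the right of the blue points (PBS) for 33 genes, and Atp6v0d2 is the 1 gene with both bleomycin points to the left.

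Markers of several cell types differed between the same libraries, and those of macrophages, cells that are rich in lysosomes, were the most abundant. The 13 macrophage markers summed to 16240, 11845, 23701 and 22190 CPM, which was 1.46-fold higher with bleomycin in WT and 1.87-fold higher in Hps1-/-. Most of this sum in every library was Lyz2 and Chil3, so these folds largely follow those genes and say little about the other markers. The median log2 ratio of the 13 was 0.82 in WT and 0.81 in Hps1-/-, with single ratios from -0.23 to 3.6 and from -1.55 to 5.06. None of the 13 was at 0 reads in any library; the sort gate removes cells that carry CD11b. At least 2-fold higher with bleomycin were 6 of the 13 in WT (46.2%, against 5.28% of all genes tested). In Hps1-/- 6 were higher (46.2%, against 26.2%) and 3 were at least 2-fold lower (23.1%, near the 19.6% of all genes). Lyz2, lysozyme of myeloid cells, was at 9428, 6083, 13145 and 12343 CPM, and C1qa, a complement subunit made by macrophages, at 143, 73.2, 1391 and 2047. Chil3, abundant in alveolar macrophages, was at 3926, 3567, 3341 and 1758 CPM, so the markers did not share 1 pattern. Fibroblast markers summed to 269, 426, 729 and 3476 CPM, which was 2.71-fold higher with bleomycin in WT and 8.16-fold higher in Hps1-/-. In Hps1-/- 10 of the 11 were at least 2-fold higher, against 26.2% of all genes. The T cell markers summed to 789, 587, 696 and 1256 CPM, and the B and plasma cell markers to 164, 140, 110 and 345 CPM. In Hps1-/- the sums of the B and plasma cell markers and of the T cell markers were 2.46-fold and 2.14-fold higher with bleomycin. In WT they were 0.671 and 0.882 times those with PBS.

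The 12 ILC2 markers found in the table summed to 761, 692, 565 and 792 CPM. None was at 0 reads in any library, which held for every marker list, but 3, 1, 3 and 3 of the 12 were under 1 CPM. Il5 was at 0.59, 1.06, 0.293 and 0.412 CPM, Il13 at 0.821, 1.43, 0.293 and 0.269, and Ptgdr2 at 0.667, 0.818, 0.574 and 0.301. The sum of the T cell markers was above that of the ILC2 markers in every library but PBS-HPS1. Thy1, a sort marker that T cells and fibroblasts also express, was at 306, 206, 224 and 551 CPM, and without it, a sum taken after the values were seen, the other 11 were at 454, 486, 342 and 241 CPM. Of the 11 ILC2 markers that passed the filter, 2 were at least 2-fold lower with bleomycin in WT (18.2%, against 8.22% of all genes), with a median ratio of -0.61. In Hps1-/- 5 were lower (45.5%, against 19.6%) and 2 higher (18.2%, against 26.2%), with a median of -0.95, and -0.43 after the correction. The part of RNA from any other cell type in the lysosomal values was not tested, and more cells of a type and more RNA per cell cannot be told apart in such bulk libraries.

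**Figure D2:**
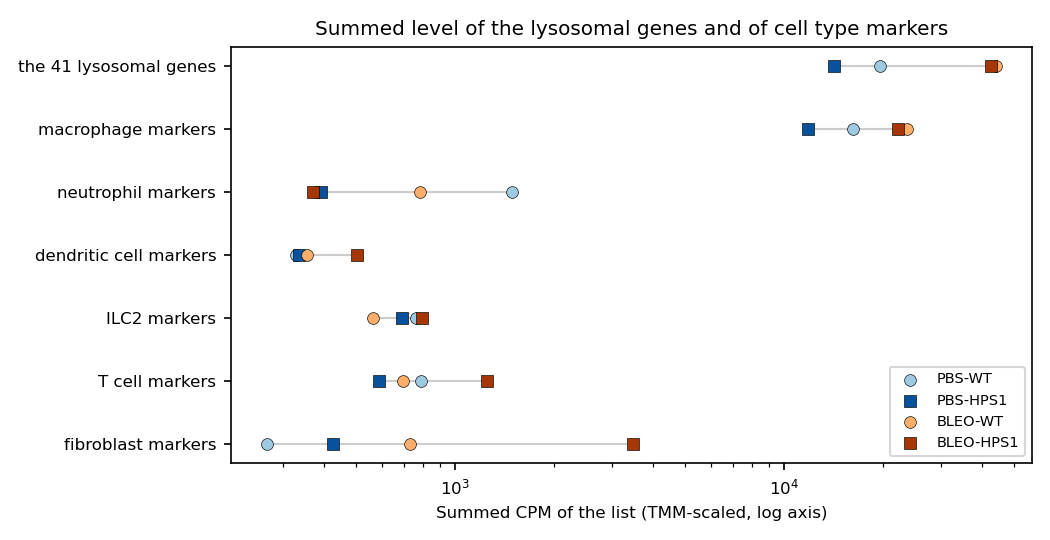
Summed level (CPM, log axis) of the 41 lysosomal genes and of 6 lists of cell type markers in each library, 1 point per library. The sums of the lysosomal genes and of the macrophage markers are both highest in the 2 bleomycin libraries and lowest in PBS-HPS1, and the fibroblast markers are highest in BLEO-HPS1. The ILC2 markers lie between 565 and 792 CPM with Thy1, whose own level is highest in BLEO-HPS1.

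The cysteine cathepsins are the main lysosomal proteases of the papain family. With bleomycin 5 of the 8 (62.5%) were at least 2-fold higher in either genotype, against 5.28% of all genes in WT and 26.2% in Hps1-/-. Ctsb, a broad endo- and exopeptidase, was at 1121, 772, 4434 and 4226 CPM, a log2 ratio of 1.98 in WT (1.97 to 1.99) and 2.45 in Hps1-/- (2.44 to 2.46). Ctsl, an endopeptidase that also processes the invariant chain in the thymus, was at 117, 93.6, 482 and 330 CPM, with ratios of 2.05 and 1.82. For these 2 genes each bleomycin library was more than 3-fold above the PBS library of its genotype. Ctss, which trims the invariant chain in antigen-presenting cells, was at 1814, 1189, 4412 and 2588 CPM, so that its BLEO-HPS1 level stood between PBS-WT and BLEO-WT. Ctsh, an aminopeptidase, was at 365, 243, 788 and 910 CPM. Ctsz, a carboxypeptidase, was at 574, 402, 1267 and 1532 CPM. The last 2 were highest in BLEO-HPS1, with bleomycin ratios of 1.11 and 1.14 in WT and 1.91 and 1.93 in Hps1-/-; after the GC and length correction those of Ctsz were 0.92 and 0.95, under the 2-fold mark. Ctsc, which activates granule serine proteases, Ctsf and Ctsk, the collagen-degrading cathepsin of osteoclasts, stayed within 2-fold in all 4 comparisons, with bleomycin ratios from 0.11 to 0.90. After the correction Ctsc was at 1.43 in Hps1-/-.

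Per kilobase of exon, Ctss was the most abundant cysteine cathepsin in every library. Its level per length was 1336, 875, 3249 and 1906 CPM per kb, which placed it 18th, 21st, 8th and 34th among 14820 genes ranked. Ctss made up 60.1%, 57.5%, 60.3% and 46.3% of the summed level per length of the 8 cathepsins. The share of Ctsb was 8.33%, 8.39%, 13.6% and 17.0%, and that of Ctsz was 17.9%, 18.3%, 16.3% and 25.8%. As counted, the shares of Ctss and Ctsz were thus alike in both PBS libraries and in BLEO-WT, with less Ctss and more Ctsz in BLEO-HPS1. Between the bleomycin libraries the ratio of Ctsz turned from 0.27 to -0.35 with the correction, while that of Ctss was -0.77 before and -0.78 after it. Lengths are those of all annotated exons of a gene together, so genes with long or rarely used exons are set low.

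Among the other peptidases, Ctsd, the aspartic protease that starts the breakdown of many lysosomal proteins, was at 1476, 1251, 5009 and 4773 CPM. Its bleomycin ratio was 1.76 in WT and 1.93 in Hps1-/-, and 1.58 and 1.18 after the correction. Ctsa, a carboxypeptidase that also protects neuraminidase and beta-galactosidase, was at 514, 355, 1032 and 1192 CPM, with ratios of 1.01 and 1.75, and 0.87 and 1.36 after the correction. These 2 genes, whose promoters are printed above, were higher in both bleomycin libraries than in both PBS libraries. Ctsa was the member just inside the 2-fold mark in WT, with Sgsh just outside at 0.98, and reads of Pltp, a gene on the opposite strand that overlaps it, amounted to between 38.2% and 52.7% of those of Ctsa. Tpp1, a tripeptidyl aminopeptidase, stayed within 2-fold, with ratios of 0.87 and 0.62.

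Glycosidases remove sugars from glycoproteins, glycolipids and glycosaminoglycans. With bleomycin 4 of the 9 were at least 2-fold higher in WT (44.4%, against 5.28% of all genes) and 7 in Hps1-/- (77.8%, against 26.2%). The share of all genes thus also rose from WT to Hps1-/-. Their median ratio was 0.97 in WT and 1.59 in Hps1-/-. Naglu, which acts on heparan sulfate, was at 50.3, 37.1, 147 and 160 CPM, with ratios of 1.55 and 2.11. Gusb, beta-glucuronidase, was at 232, 172, 534 and 592 CPM, and Man2b1, lysosomal alpha-mannosidase, at 538, 402, 1140 and 1210 CPM. These 3 genes were at least 2-fold higher in both genotypes as counted. Man2b1 went from 1.08 to 0.95 in WT after the correction, and with total counts Gusb and Man2b1 were under 2-fold in WT. Total counts also left Man2b1 under 2-fold in Hps1-/-, at 0.95, as well as Gaa, Gla and Glb1, described below, at 0.9, 0.38 and 0.99. Gla, alpha-galactosidase A, which degrades globotriaosylceramide, was the fourth, at 41.1, 35.7, 128 and 72.6 CPM. Its ratio was 1.64 in WT (1.59 to 1.70) and 1.02 in Hps1-/- (0.96 to 1.09), and it was the member just inside the 2-fold mark in Hps1-/-, with Ctsf just outside at 0.90.

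Past 2-fold in Hps1-/- but not in WT were Hexa, Gaa and Glb1. Hexa, the alpha chain of beta-hexosaminidase, which degrades GM2 ganglioside, was at 362, 271, 686 and 867 CPM and had the highest level per length of the 9, at 181, 136, 344 and 434 CPM per kb. Gaa, which breaks down glycogen, was at 80.5, 65.3, 142 and 190 CPM. Glb1, beta-galactosidase, was at 44.1, 33.7, 86.6 and 105 CPM, and reads of Tmppe, which overlaps it on the same strand, amounted to between 7.64% and 32.5% of its own. In WT the ratios of Hexa, Gaa and Glb1 were 0.92, 0.82 and 0.97, close under the mark, so the counts of 4 and 7 do not set the genotypes apart gene by gene. After the correction Gaa and Hexa were under 2-fold in Hps1-/-, at 0.96 and 0.93. Neu1, a sialidase, and Idua, which acts on dermatan and heparan sulfate, stayed within 2-fold in all comparisons, and reads of Dgkq, which overlaps Idua on the opposite strand, amounted to between 47.2% and 66.7% of the reads of Idua.

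The 2 sulfatases went different ways. Ids, which removes sulfate from dermatan and heparan sulfate, was at 87.3, 71.3, 77.2 and 36.0 CPM. Its BLEO-HPS1 level was the lowest and the other 3 libraries stood within 2-fold of each other. Against BLEO-WT its ratio in BLEO-HPS1 was -1.10 (-1.17 to -1.03), and against PBS-HPS1 it was -0.99. After the GC and length correction these were -0.39 and 0.42, so the call against BLEO-WT and the direction against PBS-HPS1 did not hold. Sgsh, the heparan sulfamidase, was at 23.8, 17.6, 47.0 and 55.4 CPM, with bleomycin ratios of 0.98 in WT and 1.66 in Hps1-/-.

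The 5 lipid hydrolases followed no common pattern. Galc, which degrades galactosylceramide, was at 28.4, 25.2, 65.7 and 34.1 CPM, highest in BLEO-WT, with bleomycin ratios of 1.21 in WT and 0.44 in Hps1-/- that became 1.96 and 2.11 after the correction. Smpd1, acid sphingomyelinase, was at 26.9, 20.5, 37.7 and 62.6 CPM, highest in BLEO-HPS1, with ratios of 0.48 and 1.61 that became 0.31 and 0.94. Galc has one of the lowest GC contents of the 41 genes and Smpd1 one of the higher ones. Lipa, the acid lipase that frees cholesterol from its esters, was at 324, 237, 465 and 327 CPM, within 2-fold as counted, and its bleomycin ratios of 0.52 and 0.47 became 0.95 and 1.56 after the correction. Asah1, acid ceramidase, was at 264, 196, 365 and 186 CPM, highest in BLEO-WT and lowest in BLEO-HPS1.

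Ppt1, which removes palmitate from proteins (chr4:122836242-122859175, GRCm38, plus strand), was the 1 member highest in PBS-WT beside Ids. It was at 400, 143, 226 and 164 CPM, and PBS-HPS1 was 2.79-fold lower than PBS-WT, a log2 ratio of -1.48 (-1.51 to -1.45) that was -1.43 after the correction. The other 40 genes had ratios between -0.61 and 0.07 in that comparison. An exon of Cap1 on the opposite strand overlaps Ppt1, and reads counted on Cap1 amounted to between 253% and 556% of those on Ppt1. Cap1 was at 1014, 623, 885 and 912 CPM, also highest in PBS-WT. Whether the counting used strand is not stated, so the reads of the 2 genes cannot be told apart where they overlap.

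The soluble cofactors and carriers held the most abundant member. Psap, the precursor of the saposins that present sphingolipids to their hydrolases (chr10:60277627-60302597, GRCm38, plus strand), was at 5048, 3315, 12008 and 12568 CPM. It took 25.8%, 23.4%, 27.3% and 29.5% of the reads of the 41 genes and stood 12th, 13th, 4th and 6th among all genes per length. Its bleomycin ratio was 1.25 in WT (1.24 to 1.26) and 1.92 in Hps1-/- (1.92 to 1.93). Grn, progranulin, a glycoprotein cleaved into granulins in the lysosome, was at 547, 383, 1709 and 1714 CPM, equal in the bleomycin libraries. Npc2, which carries cholesterol to NPC1, was at 606, 400, 1082 and 1317 CPM. All 3 were at least 2-fold higher with bleomycin in Hps1-/-, after the correction too, and Psap and Grn were so in WT.

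The membrane proteins held the gene with the largest bleomycin ratio of the 41 as counted; after the correction Ctsl was above it in both genotypes, at 2.46 and 3.06, and Ctsb in Hps1-/-, at 2.83. Cd63, a tetraspanin of late endosomes and secretory granules (chr10:128900989-128912822, GRCm38, plus strand), was at 119, 99.9, 716 and 690 CPM. It was 6.03-fold higher with bleomycin in WT (log2 ratio 2.59, 2.56 to 2.63) and 6.91-fold higher in Hps1-/- (2.79, 2.76 to 2.82), and the ratios were 2.41 and 2.12 after the correction. The bleomycin libraries were alike, with a ratio of -0.05 between them. Cd68, a glycoprotein that is abundant in macrophages and used as their marker, was at 290, 214, 590 and 557 CPM, with ratios of 1.02 and 1.38. Lamp1, a main glycoprotein of the limiting membrane, was at 590, 431, 1136 and 979 CPM, with ratios of 0.95 and 1.18. After the correction the ratios were 0.86 and 0.55 for Cd68 and 0.85 and 0.73 for Lamp1, all under 2-fold.

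Npc1, which exports cholesterol from the lysosome, was at 205, 190, 458 and 277 CPM, with ratios of 1.16 in WT and 0.55 in Hps1-/-. Reads of a gene that overlaps Npc1 on the opposite strand amounted to between 10.3% and 28.2% of those of Npc1. Laptm5, a protein of hematopoietic lysosomes that lowers antigen receptor levels, was at 1731, 1473, 2206 and 3206 CPM and had the highest level per length of the 8 membrane proteins. Its ratios were 0.35 in WT and 1.12 in Hps1-/-, the reverse order to Npc1. After the correction the ratios of Npc1 were 1.45 and 1.55 and those of Laptm5 were 0.17 and 0.48, and the genotypes stood closer together for both genes. Lamp2, which serves chaperone-mediated autophagy, was at 281, 196, 360 and 189 CPM, with bleomycin ratios of 0.36 and -0.06 that became 1.02 and 1.42 after the correction. Scarb2, the receptor that carries beta-glucocerebrosidase, and Mcoln1, a calcium channel whose promoter is printed above, stayed within 2-fold in all comparisons, with bleomycin ratios between 0.23 and 0.61.

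The proton pump gave the 1 member that was lower in both bleomycin libraries than in both PBS libraries. Atp6v0d2, a subunit d isoform found in osteoclasts and macrophages (chr4:19876841-19922605, GRCm38, minus strand), was at 318, 334, 184 and 59.1 CPM. The log2 ratio was -0.79 in WT (-0.82 to -0.76) and -2.50 in Hps1-/- (-2.55 to -2.45), and BLEO-HPS1 was 3.11-fold lower than BLEO-WT, a ratio of -1.64 (-1.69 to -1.59). Both calls held after the correction, with ratios of -1.63 against PBS-HPS1 and -1.18 against BLEO-WT. By level per length it went from 377th in PBS-WT to 2816th in BLEO-HPS1 among all genes. Atp6v1h, a subunit of the catalytic part of the pump, was at 64.2, 47.4, 75.8 and 55.8 CPM, within 2-fold as counted. Its bleomycin ratio was 0.24 in either genotype and became 1.07 in WT and 2.05 in Hps1-/- after the correction, and its transcript has the lowest GC content of the 41, 37.6%.

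Tfeb was at 80.7, 54.0, 86.8 and 113 CPM. Its bleomycin ratio was 0.11 in WT and 1.07 in Hps1-/- (1.01 to 1.12), and 0.21 in Hps1-/- after the correction, and its transcript has the highest GC content of the 41 genes, 63.2%. The 4 genes with TCACGTGA in the printed stretches had bleomycin ratios of 1.01 (Ctsa), 1.76 (Ctsd), 1.64 (Gla) and 0.46 (Mcoln1) in WT, and 1.75, 1.93, 1.02 and 0.32 in Hps1-/-. Mcoln1 was thus apart from the other 3. The level of a transcript does not show the activity of TFEB, which is set largely by its phosphorylation and its place in the cell.

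Gene by gene, the bleomycin ratios of the 2 genotypes can be set side by side, and they share no library. Of the 41 genes, 15 were at least 2-fold higher in both genotypes, 2 (Galc and Npc1) in WT alone and 9 in Hps1-/- alone, which were Gaa, Hexa, Glb1, Sgsh, Smpd1, Npc2, Lamp1, Laptm5 and Tfeb. The remaining 15 were higher in neither. Of all genes tested, 5.28% were at least 2-fold higher in WT and 26.2% in Hps1-/-. A larger count in Hps1-/- was thus not particular to the 41 genes. The share of all genes past the mark in both genotypes was not taken. The Hps1-/- ratio minus the WT ratio had a median of 0.24 over the 41 genes, against 0.15 over all genes tested, and ran from -1.71 for Atp6v0d2 to 1.13 for Smpd1. With total counts its median was -0.14, and with the correction 0.16. Total counts shift all genes alike, and the median ratios of all genes were then -0.18 in WT and -0.43 in Hps1-/-. With the correction they were 0.14 and 0.31. The median difference over all genes was not taken under these settings. Without replicates the difference could not be tested for any gene.

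**Figure D3:**
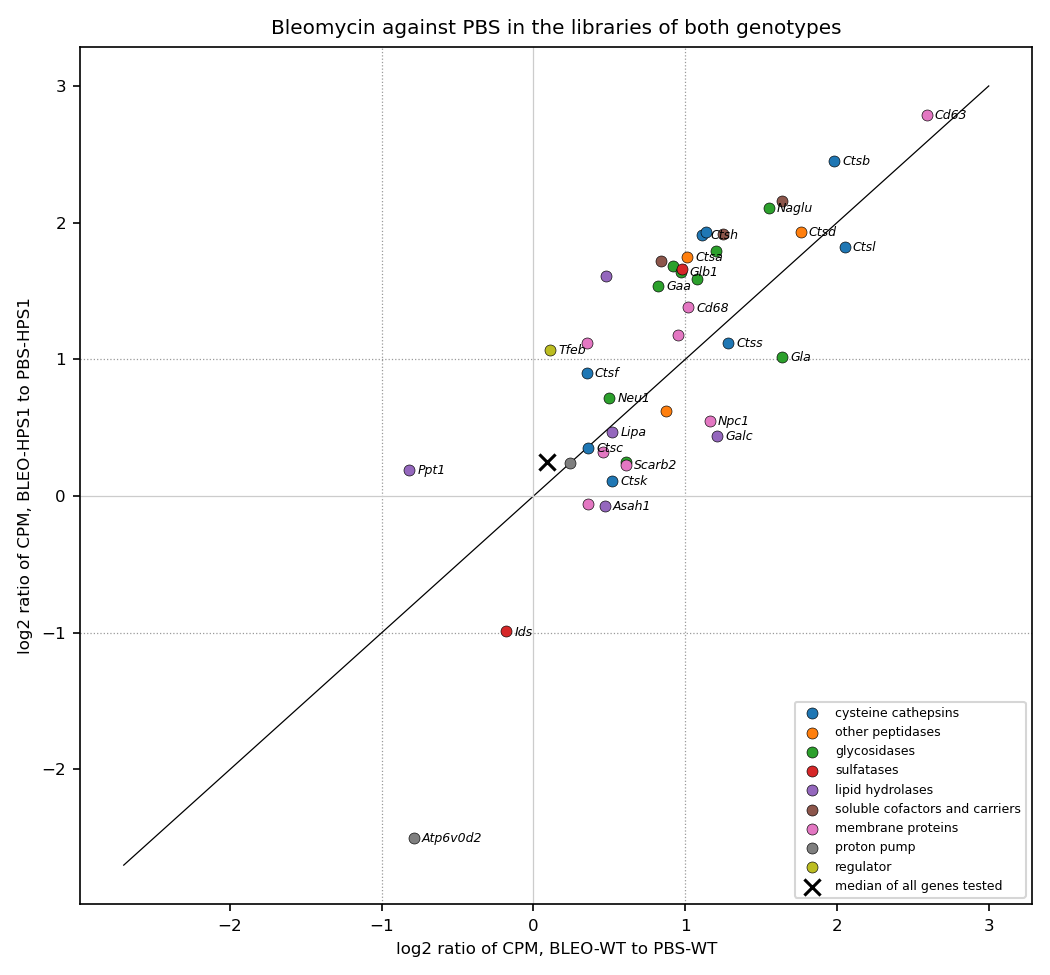
Log2 ratio of bleomycin to PBS for each of the 41 genes in WT (horizontal) and in Hps1-/- (vertical), coloured by role, with some names left out where points crowd. Dotted lines mark 2-fold, the diagonal marks equal ratios and the cross marks the median of all genes tested; 15 genes lie beyond 2-fold on both axes, and Atp6v0d2 lies alone at the lower left.

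With PBS, the lysosomal genes stood somewhat lower in the Hps1-/- library. Their median ratio was -0.42, against -0.19 for all genes, and 32 of the 41 were below the median of all genes while 7 were above it. PBS-HPS1 was the lowest of the 4 libraries for 36 of the 41 genes. The share of all genes lowest in PBS-HPS1 was not taken, so this count has no background. The median of all genes was also lower in PBS-HPS1 than in PBS-WT, and 0.25 higher in BLEO-HPS1 than in PBS-HPS1. The summed level was 0.724 times that of PBS-WT, beside 0.729 times for the macrophage markers, 0.744 for those of T cells and 0.737 for epithelial ones. Neutrophil markers were at 0.261 times, and 10 of the 10 that passed the filter were at least 2-fold lower, against 3.11% of all genes. Mast cell, basophil and eosinophil markers were at 0.54 times, B and plasma cell markers at 0.854, ILC2 markers at 0.909 and endothelial ones at 0.958. Dendritic cell, fibroblast and NK cell markers were at 1.02, 1.58 and 1.61 times, so the lists did not fall together. By total counts, 27 of the 41 were below 0 and 13 above it, where the median of all genes was 0.06.

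With bleomycin, the ratio of BLEO-HPS1 to BLEO-WT varied with the GC content of the transcript. Spearman's correlation of GC content with this ratio was 0.79 across the 41 genes, and 0.54 across 14813 genes, which share the libraries and are not independent. The 18 genes above 0 had a median GC content of 55.4% and the 23 below 0 one of 46.0%. The correction lowered the SD of the 41 ratios from 0.52 to 0.33 and left 11 of them above 0. Of the genes close to or past 2-fold lower, Ids went from -1.10 to -0.39, Asah1 from -0.97 to -0.58, Galc from -0.94 to -0.19 and Lamp2 from -0.93 to -0.25. Ctss did not move, at -0.77 before and -0.78 after, and Atp6v0d2 stayed past 2-fold.

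**Figure D4:**
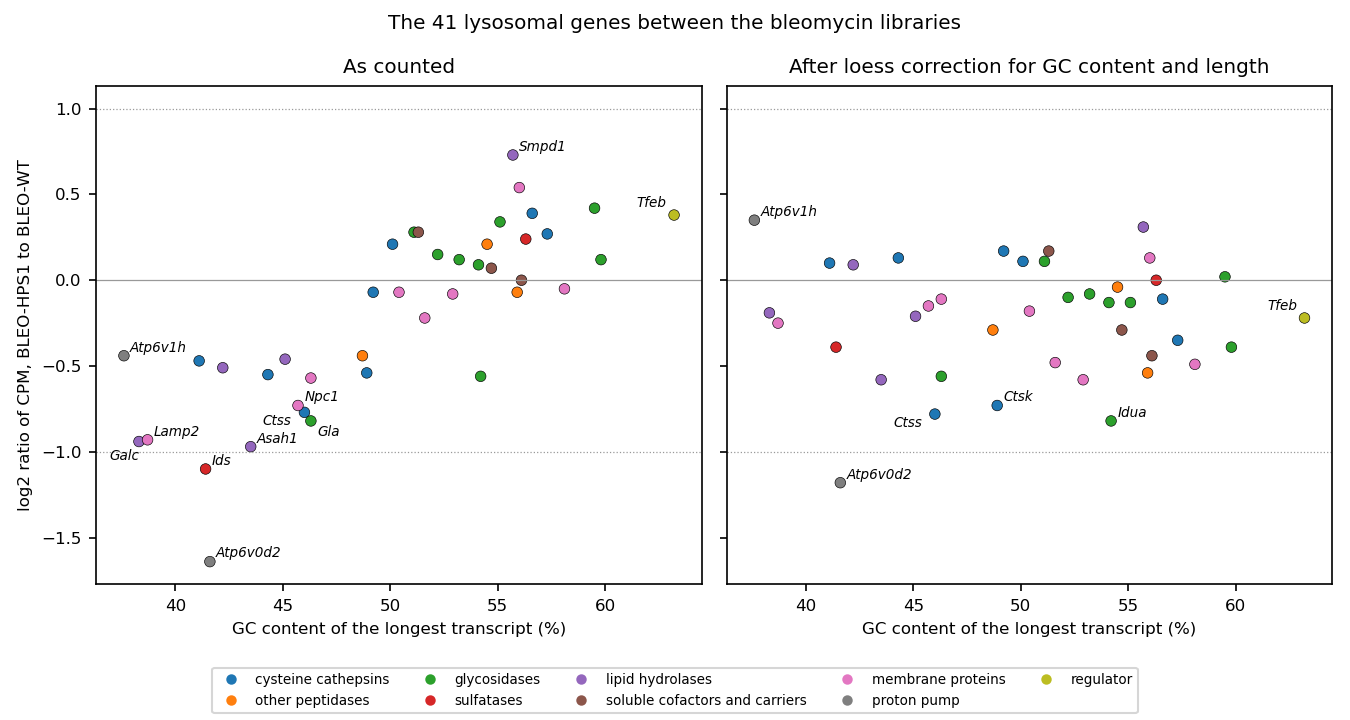
Difference of log2 CPM, BLEO-HPS1 minus BLEO-WT, of the 41 genes against the GC content of the longest transcript (%), coloured by role. Values are shown as counted and after correction by a joint loess fit on GC content and length over the genes tested. As counted the points climb with GC content (Spearman's correlation 0.79), and after the correction they lie between -1.18 and 0.35.

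The same relation was present between bleomycin and PBS. Spearman's correlation between GC content and the ratio was 0.25 across the 41 genes in WT and 0.65 in Hps1-/-, beside 0.43 and 0.56 across all genes, and -0.06 between the PBS libraries. After the correction, 15 genes were at least 2-fold higher with bleomycin in WT, 13 of them among the 17 as counted, and 22 were so in Hps1-/-, 16 of them among the 24. The genes that dropped out in WT were Ctsz, Ctsa, Man2b1 and Cd68, and Lamp2 and Atp6v1h came in. In Hps1-/- Ctsz, Gaa, Hexa, Smpd1, Lamp1, Cd68, Laptm5 and Tfeb dropped out, and Ctsc, Galc, Lipa, Lamp2, Npc1 and Atp6v1h came in. The median of the 41 stayed at 0.87 in WT and 1.18 in Hps1-/-, beside 0.14 and 0.31 for all genes. The shares of all genes past 2-fold after the correction were not taken. The count was therefore steadier than the list of genes.

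Other genes of the lysosome were taken in 6 lists of 124 genes, of which 118 passed the filter. With bleomycin 17 were at least 2-fold higher and 4 lower in WT (14.4% and 3.39%, against 5.28% and 8.22% of all genes), and 45 were higher and 9 lower in Hps1-/- (38.1% and 7.63%, against 26.2% and 19.6%). Of the 30 other hydrolases, 6 were at least 2-fold higher with bleomycin in WT and 17 in Hps1-/-, and 0 were lower in either. Lgmn, the asparaginyl endopeptidase that matures several cathepsins, was at 192, 133, 1263 and 1120 CPM, with ratios of 2.72 and 3.08, beyond those of Cd63. Of the 27 other membrane proteins, 6 were higher and 3 lower in WT, and 9 higher and 4 lower in Hps1-/-, where the shares of 33.3% and 14.8% were near those of all genes. Lamp3, a LAMP protein of mature dendritic cells and type 2 pneumocytes, was at 20.1, 14.6, 3.85 and 0.95 CPM, Mcoln3, a calcium channel related to Mcoln1, at 73.5, 74.7, 24.2 and 10.3 CPM, and Cd164, a sialomucin, at 631, 560, 294 and 130 CPM. These 3 were lower in both bleomycin libraries than in both PBS libraries, as Atp6v0d2 was; after the correction the WT ratio of Cd164 went from -1.10 to -0.70.

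Of the 23 other V-ATPase subunits, 20 passed the filter. With bleomycin 3 were at least 2-fold higher in WT (15.0%, against 5.28% of all genes) and 8 in Hps1-/- (40.0%, against 26.2%). In each genotype 1 was lower (5.0%, against 8.22% of all genes in WT and 19.6% in Hps1-/-). After the correction 3 were higher in WT and 5 in Hps1-/-. Atp6v0c, the proteolipid of the membrane ring, was at 79.0, 70.7, 181 and 185 CPM, and Atp6v0d1, the widely used d subunit, at 135, 105, 213 and 264 CPM. With the correction their ratios in Hps1-/- went from 1.39 to 0.97 and from 1.33 to 0.59, under 2-fold. The pattern of Atp6v0d2 was thus not that of its isoform. In sorting and fusion, 0 of 20 genes were higher in WT, and in Hps1-/- 3 were higher (15.0%) and 1 lower, both under the shares of all genes. The lower one was the sorting receptor Sort1, at 514, 483, 436 and 227 CPM, whose ratio of -1.09 was -0.53 after the correction. Of 17 genes of the TFEB family and its control by mTORC1, 1 was higher in WT (5.88%, near the share of all genes). In Hps1-/- 5 were higher and 3 lower (29.4% and 17.6%, near the shares of all genes), and after the correction 3 were higher and 0 lower. Lamtor1, the anchor of the Ragulator complex, was at 64.8, 42.4, 112 and 165 CPM, while Mitf, a relative of TFEB, was at 23.8, 29.4, 35.5 and 10.6 CPM, and its ratio in Hps1-/- went from -1.47 to -0.32 with the correction. Of 7 cathepsin inhibitors 4 passed the filter, and 1 was higher with bleomycin in WT and 3 in Hps1-/-. Cst3, cystatin C, a secreted inhibitor of cysteine cathepsins, was at 899, 567, 1533 and 2896 CPM, with ratios of 0.77 and 2.35, and 0.53 and 1.19 after the correction.

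**Figure D5:**
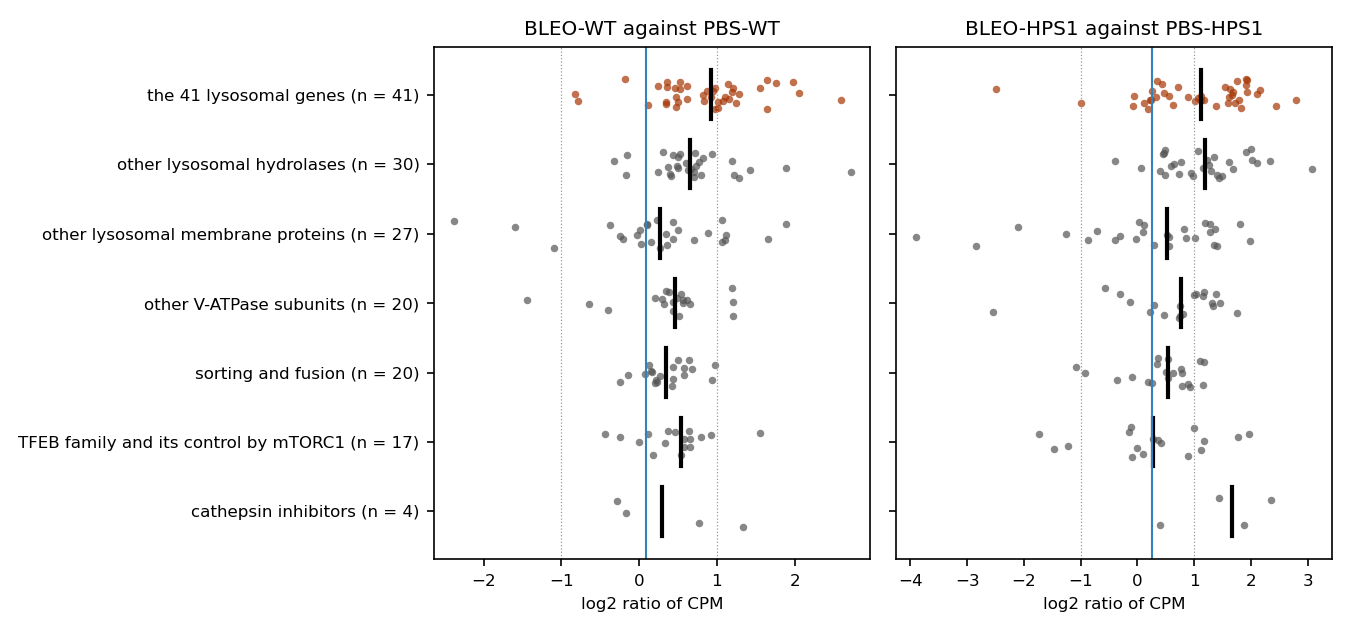
Log2 ratio of bleomycin to PBS in WT and in Hps1-/- for the 41 genes and for the genes of 6 other lysosomal lists that passed the filter, 1 point per gene, with the median of each list as a black bar. The blue line is the median of all genes tested and dotted lines mark 2-fold; the median of the 41 genes is 0.92 in WT and 1.12 in Hps1-/-.

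Between the bleomycin libraries, 3 of the 118 were at least 2-fold higher in BLEO-HPS1 (2.54%, against 6.72% of all genes) and 14 lower (11.9%, against 10.3%). After the correction 0 were higher and 5 lower. Ctsw, a cathepsin of cytotoxic lymphocytes, was higher at 44.9 CPM in BLEO-WT and 122 in BLEO-HPS1, and Cst7, an inhibitor expressed in the same cells, at 12.6 and 31.1. Fnip2 and Fnip1, partners of folliculin in mTORC1 control, were lower, at 87.5 and 25.2 CPM and at 32.2 and 12.0 CPM. After the correction the ratio of Ctsw was 0.93 and that of Cst7 0.92, both under 2-fold, that of Fnip1 went from -1.43 to -0.59, and that of Fnip2 was -1.33. Between the PBS libraries, 0 of the 118 were higher and 1 was lower, the stefin Stfa2l1, at 6.58 CPM in PBS-WT and 1.88 in PBS-HPS1.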

How the data were processed

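The authors deposited unnormalized counts of reads for each Ensembl gene, for ILC2s from mouse lungs in 4 libraries made with a SMARTER mRNA kit from 22405, 38873, 84166 and 128647 cells. The aligner, counter, build and strand setting are not given in the sources used here. Groups were taken from the labels. Totals were scaled with edgeR 4.0.16 TMM factors (1.08, 1.27, 0.895 and 0.816); log2 CPM used a prior count of 2, and genes were compared that reached 1 CPM in any library. No test could be fitted to single libraries, so genes at least 2-fold apart were counted, and single ratios have exact 95% intervals. PCR copies are not independent molecules. Exon lengths, and the GC content and length of the longest transcript, came from GENCODE M21 (49056 identifiers matched). A joint loess fit (span 0.3) of the ratios on GC content and log2 transcript length gave the correction. The ratios, their intervals and the 2-fold calls were tested on simulated counts with counting noise only, and the TMM factors and the correction were not tested so. Every member at least 2-fold apart in some comparison and the most abundant per role are given with all values; from other lists, genes at least 2-fold apart with at least 10 CPM, at most 4 per list and comparison, plus Stfa2l1, chosen after its values were seen. The members and lists were chosen with earlier results of these data known. Alternatives were DESeq2 1.42.0 size factors, total counts, TMM with immunoglobulin genes left out, a prior count of 0.5 or 10, removal of the filter, a minimum of 10 counts in each library, and thresholds of 1.5-fold and 3-fold.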

Additional observations from a re-analysis of the deposited data

Results flagged for a closer look

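For 2 of the 41 genes the bleomycin library was above PBS in WT and below it in Hps1-/-, and the difference was not tested, since each group was 1 library. Asah1 had a log2 ratio of 0.47 in WT and -0.07 in Hps1-/-, a difference of -0.54. Lamp2 had ratios of 0.36 and -0.06, a difference of -0.42. After the GC and length correction both genes were above PBS in both genotypes, Asah1 at 0.74 and 0.59 and Lamp2 at 1.02 and 1.42.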

How the results depend on the processing

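No paired analysis was possible because each group was 1 library and the labels give no replicate numbers, and no library could be left out. Of 1312 single-gene ratios recomputed under the alternatives, 1255 kept their sign and 57 did not, and none of those past 2-fold was among the 57. Removing the filter or asking for 10 counts in each library leaves a single ratio unchanged. At these read numbers the prior count hardly moves it. The ratios under those settings kept their sign by construction, so the 1255 are no measure of robustness. With total counts, the genes at least 2-fold apart were 8 higher (17 with TMM) and 2 lower (0) in BLEO-WT against PBS-WT, 14 higher (24) and 2 lower (1) in BLEO-HPS1 against PBS-HPS1, and 5 lower (2) in BLEO-HPS1 against BLEO-WT; the median difference of the bleomycin ratios between genotypes changed from 0.24 to -0.14, and the median in Hps1-/- relative to all genes from 0.87 to 0.91. At 1.5-fold the counts were 5 lower (1) in PBS-HPS1 against PBS-WT, 26 higher and 2 lower in WT with bleomycin, 2 lower in Hps1-/- with bleomycin, and 1 higher (0) and 8 lower between the bleomycin libraries. At 3-fold they were 0 lower, 6 higher in WT with bleomycin, and 1 lower between the bleomycin libraries. With the GC and length correction 1 gene was lower between the bleomycin libraries, the difference between genotypes was 0.16, and the medians relative to all genes were -0.17 (PBS-HPS1 against PBS-WT, -0.23 without it), 0.72 (BLEO-WT, 0.83) and -0.15 (between the bleomycin libraries, -0.03). Without a filter the relative medians were -0.46, 0.92, 1.61 and -0.07, and with at least 10 counts in every library 0.91 in Hps1-/- and -0.05 between the bleomycin libraries. The change of the median difference from 0.24 to -0.14 with total counts is a shift that all genes share. The spread between mice is unknown, and depth limits only the counting intervals, with at least 1190 reads per gene.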
